A study of Homo sapiens with 6 samples.

Results

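The genes described here encode the collagens, the laminins and the integrin subunits, the structural proteins of the extracellular matrix and the receptors that hold cells to it. Members were chosen by gene symbol alone. They are protein-coding genes whose symbol is COL, digits, A and digits, or LAMA, LAMB or LAMC with a digit, or ITGA or ITGB naming an integrin subunit. The genes reported are 65 of 22153 in the table, made up of 31 collagens, 11 laminins and 23 integrin subunits. A further 4 genes whose symbols begin with ITGB encode binding proteins or an integrin-like protein and were left out.

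The cells were EA.hy926, a hybrid human line obtained by fusing endothelial cells of the umbilical vein with A549 lung carcinoma cells. Hypoxia was 1% oxygen for 8 h in a tri-gas incubator, begun when the cells neared confluence, with 3 libraries of polyadenylated RNA. Normoxia was 20% oxygen, also with 3 libraries. All cells grew in high-glucose medium with fetal bovine serum and antibiotics, and both groups are the same single line, so no other endothelial cell was compared. The series asks which genes change expression after the hypoxic period. The labels do not say that libraries of a group came from separate cultures, so p-values here measure only the spread between these libraries, which may be technical.

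Basement membranes are thin sheets under endothelia and epithelia. Laminins are cross-shaped trimers of an alpha, a beta and a gamma chain that polymerise at the cell surface. Collagen IV trimers form a second network beneath them, and fibrillar collagens such as types I, III and V build the interstitial matrix beyond. Integrins are heterodimers of an alpha and a beta subunit, and the alpha subunit largely sets whether the pair binds laminin, collagen or proteins with an RGD motif such as fibronectin. Collagen assembly needs oxygen, because prolyl and lysyl hydroxylases use it as a substrate.

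Genes of collagen IV lie head to head in pairs, and a window at the start of 1 gene from each of 2 such pairs is shown because the levels of paired chains are compared below. In GENCODE 29 (GRCh38), COL4A1 spans 110148963 to 110307233 of chromosome 13 on the minus strand, and COL4A2 spans 110305812 to 110513209 on the plus strand. COL4A6 spans 108155607 to 108439497 of chromosome X on the minus strand, and COL4A5 spans 108439844 to 108697545 on the plus strand. The windows printed are from RefSeq (GRCh38.p14), run from 250 bases before to 50 bases after the annotated start, and read 5′ to 3′ on the strand of the named gene. Capitals mark the bases that the window shares with that of its head-to-head partner.
COL4A1: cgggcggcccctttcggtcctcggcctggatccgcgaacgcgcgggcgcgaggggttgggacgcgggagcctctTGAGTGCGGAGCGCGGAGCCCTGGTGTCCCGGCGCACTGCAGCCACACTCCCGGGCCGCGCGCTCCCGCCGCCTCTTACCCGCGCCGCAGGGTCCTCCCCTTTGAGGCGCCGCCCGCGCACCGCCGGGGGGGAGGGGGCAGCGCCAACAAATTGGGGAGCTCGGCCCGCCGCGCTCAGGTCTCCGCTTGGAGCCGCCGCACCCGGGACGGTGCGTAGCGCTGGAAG
COL4A5: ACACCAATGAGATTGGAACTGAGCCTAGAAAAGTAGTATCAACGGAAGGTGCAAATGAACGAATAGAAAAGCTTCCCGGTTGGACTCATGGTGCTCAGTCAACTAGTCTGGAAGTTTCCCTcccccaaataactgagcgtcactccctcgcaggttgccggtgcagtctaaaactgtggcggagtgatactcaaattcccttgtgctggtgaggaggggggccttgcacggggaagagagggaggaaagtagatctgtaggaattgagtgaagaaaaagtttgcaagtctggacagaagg
The COL4A1 window is chr13:110307108-110307407 on the minus strand and shares 226 of its 300 bases with the COL4A2 window, chr13:110307034-110307333 on the plus strand. The annotated starts of COL4A1 and COL4A2 are 127 bases apart. The COL4A5 window is chrX:108439588-108439887 on the plus strand and shares 121 bases with 1 of the 2 windows of COL4A6, chrX:108439409-108439708 on the minus strand, with starts 380 bases apart. The GC content was 76.7% in the COL4A1 window and 77.7% in the COL4A2 window, against 49.3% in the COL4A5 window and 43.7% in the COL4A6 window. The letters ACGTG, the core of the element bound by hypoxia-inducible factors, were searched on both strands and were in none of these 4 windows. They are in 21.4% of all 35116 windows of this length, and in 10 of the 63 windows of the members (15.9%).

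Levels are given as FPKM, reads scaled to the summed exon length of a gene and to the mean library total, on the size factors the authors used. Reads assigned to genes ran from 17747672 to 18652704 in the hypoxia libraries and from 17226736 to 18460466 in the normoxia libraries. Genes of the hypoxic response checked the labels, since ANGPTL4, BNIP3, PGK1, LDHA and SLC2A1 were all called higher in hypoxia. Endothelial markers summed to between 999 and 1869 FPKM in hypoxia and between 987 and 1530 FPKM in normoxia, with PECAM1 at 71.7 FPKM or more in every library. Of the 13 endothelial markers found, 11 reached 1 FPKM in at least 3 libraries, and 2 had no reads in at least 1 library. Keratins KRT7, KRT8 and KRT18 were also high, at 123 FPKM or more in every library, while the epithelial surface marker EPCAM was at 0.397 FPKM or less. Epithelial markers summed to between 620 and 963 FPKM in hypoxia and between 696 and 1124 FPKM in normoxia. Fibroblast and mural markers summed to between 13.7 and 14.9 FPKM in hypoxia and between 9.84 and 21.7 FPKM in normoxia. Of the 7 such markers found, 3 reached 1 FPKM in at least 3 libraries, so such markers were not absent. The others did not reach it, among them PDGFRB and THY1 at 0.104 FPKM or less. Leukocyte markers summed to between 1.94 and 3.74 FPKM in hypoxia and between 1.32 and 4.34 FPKM in normoxia.

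None of these 65 genes passed the test between hypoxia and normoxia. A gene was tested when it reached 1 FPKM in at least 3 libraries, which held for 32 members, made up of 12 collagens, 7 laminins and 13 integrin subunits. limma, a linear model fitted to log2(FPKM + 0.1) of all 10237 genes that reached that level, called 0 members at a Benjamini-Hochberg adjusted p below 0.05, against 10 of all genes (0.0977%). At an unadjusted limma p below 0.05 there were 0 of these members, against 275 genes (2.69%). The libraries of the groups overlapped in all 32, while they did not overlap in 766 genes (7.48%). edgeR also called 0 members and 10 genes (0.0977%), with 0 members at an unadjusted p below 0.05, against 248 of the 10237 genes. DESeq2 called 0 members and 50 genes (0.488%). At an unadjusted DESeq2 p below 0.05 there was 1 member, ITGB4, of 32, against 304 of the 10237 genes. Since whole cultures were sequenced, fewer cells of a type and less RNA per cell cannot be told apart in any level below.

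The log2 differences, hypoxia minus normoxia, lay close to 0 for most members. The median was 0.13 over the 12 tested collagens, 0.04 over the 7 laminins and 0.09 over the 13 integrin subunits, beside 0.00 over all genes tested. Of the 32 members 23 were positive and 9 negative, whereas 50.6% of all genes tested were positive. This lean depended on 2 libraries. Without hypoxia replicate 2 the medians were -0.25 for collagens, -0.28 for laminins and -0.01 for integrin subunits. Without normoxia replicate 3 they were -0.26, -0.25 and 0.01.

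**Figure D1:**
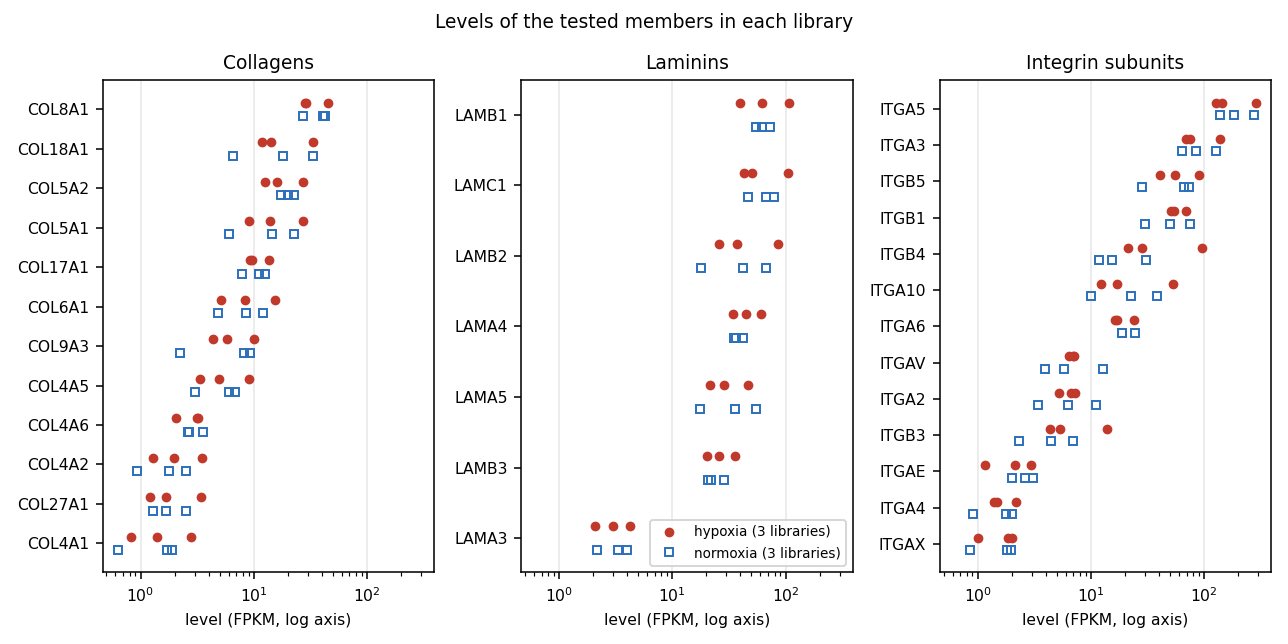
Levels of the 32 tested members in each library, in FPKM on a log axis, with collagens, laminins and integrin subunits in separate panels and members ordered by their mean. Filled circles are the 3 hypoxia libraries and open squares the 3 normoxia libraries. The circles and squares overlap for every member, and ITGA5 reached the top of the scale at 288 FPKM.

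Collagen IV, the network collagen of basement membranes, was present at low levels per length of gene. COL4A5 had 3.38, 8.98 and 4.88 FPKM in hypoxia, against 6.77, 6.07 and 3.03 FPKM in normoxia. Its partner COL4A6 had 3.22, 3.12 and 2.04 FPKM in hypoxia, against 3.54, 2.62 and 2.65 FPKM in normoxia. The groups overlapped in both genes, and hypoxia replicate 2 held the most COL4A5 but not the most COL4A6. COL4A2 had 1.29, 3.48 and 1.96 FPKM in hypoxia, against 2.502, 1.79 and 0.925 FPKM in normoxia. COL4A1 had 0.815, 2.81 and 1.39 FPKM in hypoxia, against 1.90, 1.71 and 0.629 FPKM in normoxia. These chains were both highest in hypoxia replicate 2 and lowest in normoxia replicate 3. The log2 differences were 0.08 for COL4A5, -0.09 for COL4A6, 0.34 for COL4A2 and 0.20 for COL4A1, with 95% intervals that all include 0. That of COL4A2, the largest among collagens, ran from -0.74 to 1.43 and was -0.02 without hypoxia replicate 2.

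The head-to-head pairs differed in how closely their chains followed each other over the libraries. The ratio of COL4A1 to COL4A2 was 0.632, 0.807 and 0.708 in hypoxia, against 0.761, 0.955 and 0.680 in normoxia, although the level of COL4A1 itself spanned 0.629 to 2.81 FPKM. The ratio of COL4A5 to COL4A6 was 1.05, 2.88 and 2.40 in hypoxia, against 1.91, 2.32 and 1.14 in normoxia. The groups overlapped in both ratios. LAMB1 and LAMC1, which lie on chromosomes 7 and 1, had a ratio between 0.772 and 1.24 over the libraries. Whether shared starts bear on such ratios was not tested. The order of the chains depends on the length used, and which exons these cells use was not tested. Divided by the longest protein-coding transcript, a choice made after the data were seen, mean levels over the 6 libraries were 5.92 for COL4A2 and 3.43 for COL4A1, against 1.99 and 1.54 with summed exons. COL4A5 then stood at 10.1 and COL4A6 at 3.94, against 5.52 and 2.86 with summed exons, so COL4A2 passed COL4A6. COL4A3, a chain of specialised basement membranes, had at most 5 reads in any library.

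The collagen with the highest level was COL8A1, a short-chain network collagen of vessel walls. It had 28.4, 45.1 and 28.6 FPKM in hypoxia, against 40.9, 42.5 and 27.0 FPKM in normoxia. It made up 23.2% to 29.7% of the summed collagen FPKM in hypoxia and 23.8% to 33.2% in normoxia. Its groups overlapped, with a log2 difference of -0.12 (95% interval -0.76 to 0.52). COL18A1, whose protein carries the endostatin domain, had 11.7, 33.2 and 14.1 FPKM in hypoxia, against 33.2, 18.2 and 6.57 FPKM in normoxia. The highest level of each group was alike, and the log2 difference of 0.15 had an interval from -1.26 to 1.57. The exons of COL18A1 share 1401 bases, 16.4% of their length, with SLC19A1 on the opposite strand. The sources used here do not state whether reads were counted by strand, so reads of both genes may be mixed.

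Among fibrillar collagens, type V was present and type I had at most 9 reads in any library. COL5A2 had 16.0, 27.1 and 12.5 FPKM in hypoxia, against 22.6, 20.1 and 17.6 FPKM in normoxia. Its log2 difference of -0.19 (95% interval -0.90 to 0.52) was the lowest among collagens, with overlapping groups. COL5A1 had 9.15, 27.2 and 13.95 FPKM in hypoxia, against 22.6, 14.5 and 5.999 FPKM in normoxia, a log2 difference of 0.27 (95% interval -0.99 to 1.53). The ratio of COL5A1 to COL5A2 was 0.573, 1.00 and 1.12 in hypoxia, against 1.00, 0.721 and 0.342 in normoxia, and thus varied more than 2-fold within normoxia. COL27A1, a fibrillar chain known from cartilage, had 1.67, 3.39 and 1.22 FPKM in hypoxia, against 2.51, 1.66 and 1.29 FPKM in normoxia. By contrast COL1A1 had 4, 4 and 1 reads in hypoxia, against 7, 7 and 0 reads in normoxia. COL1A2 had 1, 9 and 0 reads in hypoxia, against 8, 4 and 0 reads in normoxia. Summed with COL2A1, these chains stayed at or below 0.0848 FPKM in every library.

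Collagen VI, whose chains form beaded filaments next to basement membranes, was represented by 1 of its 2 neighbouring genes on chromosome 21. COL6A1 (45981737 to 46005050, plus strand) had 477, 1407 and 836 reads in hypoxia, against 1085, 857 and 489 reads in normoxia. COL6A2 (46098097 to 46132849, plus strand) had 5, 0 and 2 reads in hypoxia, against 3, 2 and 7 reads in normoxia. COL6A1 was thus above COL6A2 by far in every library of either group. On the FPKM scale COL6A1 stood at 5.18, 15.3 and 8.33 in hypoxia, against 12.04, 8.50 and 4.82 in normoxia, a log2 difference of 0.14 (95% interval -0.93 to 1.21). The chains COL6A5 and COL6A6 had at most 5 reads in any library. COL6A5 had 2, 2 and 5 reads in hypoxia, against 1, 1 and 0 reads in normoxia, so its groups did not overlap, at counts below the filter.

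The other 2 tested collagens have epithelial or cartilage associations. COL17A1, the transmembrane collagen of hemidesmosomes, had 9.29, 13.5 and 9.63 FPKM in hypoxia, against 12.6, 11.1 and 7.90 FPKM in normoxia. Its log2 difference of 0.04 had one of the narrower intervals, from -0.58 to 0.67. COL9A3, a chain of the fibril-associated collagen IX, had 4.33, 10.1 and 5.84 FPKM in hypoxia, against 9.24, 8.24 and 2.25 FPKM in normoxia. The groups overlapped in both genes. Summed over all collagens, the level was 95.6, 195 and 105 FPKM in hypoxia, against 172, 138 and 81.5 FPKM in normoxia.

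Laminin transcripts summed to more than collagen transcripts in every library. Their sum was 193, 446 and 248 FPKM in hypoxia, against 331, 284 and 198 FPKM in normoxia. The beta chain LAMB1 and the gamma chain LAMC1, partners in most vascular laminins, had the highest mean levels of the laminins reported. LAMB1 had 39.8, 108 and 62.5 FPKM in hypoxia, against 61.6, 72.7 and 55.3 FPKM in normoxia. LAMC1 had 43.1, 106 and 50.6 FPKM in hypoxia, against 79.8, 66.8 and 46.3 FPKM in normoxia. The pair moved together over the libraries, with a ratio of LAMB1 to LAMC1 of 0.923, 1.02 and 1.24 in hypoxia, against 0.772, 1.09 and 1.19 in normoxia. With transcript length in place of exon length LAMB1 kept rank 3 among members, while LAMC1 moved to rank 7 of 32, with a mean of 69.7 FPKM that lay below the 74.7 FPKM of LAMA4. Log2 differences were 0.04 for LAMB1 (95% interval -0.77 to 0.85) and -0.03 for LAMC1 (95% interval -0.89 to 0.82).

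LAMB2, the beta chain known from synapses and the kidney glomerulus, had 26.0, 85.4 and 37.5 FPKM in hypoxia, against 66.6, 42.4 and 17.8 FPKM in normoxia. Its log2 difference of 0.24 (95% interval -1.06 to 1.55) was -0.24 without hypoxia replicate 2. The ratio of LAMB1 to LAMB2 was 1.53, 1.26 and 1.67 in hypoxia, against 0.926, 1.72 and 3.11 in normoxia. The hypoxia ratios all fell inside the range of the normoxia ratios.

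The endothelial alpha chains are LAMA4 and LAMA5. LAMA4 had 34.1, 61.0 and 44.9 FPKM in hypoxia, against 35.4, 41.7 and 36.4 FPKM in normoxia. LAMA5 had 21.6, 46.6 and 28.6 FPKM in hypoxia, against 55.1, 35.7 and 17.5 FPKM in normoxia. LAMA4 was thus even among normoxia libraries, where LAMA5 ran from 17.5 to 55.1 FPKM. The log2 difference of LAMA4 was 0.27 (95% interval -0.31 to 0.84) and that of LAMA5 was -0.09 (95% interval -1.12 to 0.95). The ratio of LAMA4 to LAMA5 was 1.58, 1.31 and 1.57 in hypoxia, against 0.642, 1.17 and 2.08 in normoxia. GC content was 48.0% for LAMA4 and 65.3% for LAMA5. Neither this ratio nor any other ratio of chains given here is corrected for the dependence of libraries on GC content, described below.

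LAMA3 and LAMB3 encode chains of the laminin that epithelia use at hemidesmosomes. LAMB3 had 26.1, 35.5 and 20.4 FPKM in hypoxia, against 28.5, 20.8 and 21.9 FPKM in normoxia. LAMA3 had 2.09, 4.22 and 2.998 FPKM in hypoxia, against 3.30, 4.01 and 2.17 FPKM in normoxia. LAMB3 was above LAMA3 in every library, and the groups overlapped in both genes. Their log2 differences were 0.18 (95% interval -0.43 to 0.79) and -0.04 (95% interval -0.86 to 0.78).

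**Figure D2:**
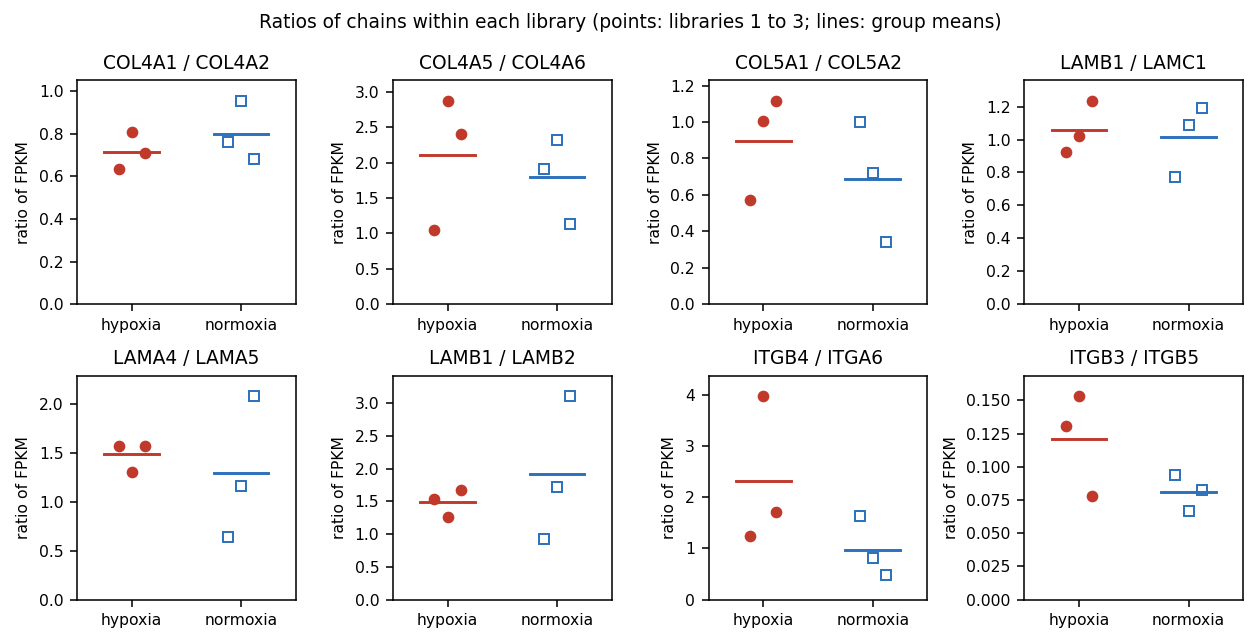
Ratios of FPKM between partner or related chains within each library, 1 panel a ratio, on linear axes from 0. Filled circles are hypoxia libraries 1 to 3, open squares normoxia libraries 1 to 3, and lines are group means. The groups overlap in all 8 panels, and in the ITGB4 to ITGA6 panel the lowest hypoxia value is 1.25 and the highest normoxia value 1.64.

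Integrin alpha subunits were led by ITGA5, the fibronectin receptor subunit. ITGA5 (chromosome 12, 54395261 to 54419460, minus strand) had 127, 288 and 145 FPKM in hypoxia, against 277, 186 and 137 FPKM in normoxia. It was the highest of all members and ranked 250 among the 10237 genes tested. ITGA5 made up 52.1%, 55.2% and 52.9% of all integrin alpha FPKM in hypoxia, against 58.5%, 56.1% and 51.5% in normoxia. Its share was steadier than its level, which follows in part from ITGA5 being most of the sum, and the groups overlapped in both. The log2 difference was -0.14 (95% interval -1.01 to 0.73). ITGAV, which also binds RGD proteins, had 6.93, 7.07 and 6.35 FPKM in hypoxia, against 3.91, 5.79 and 12.7 FPKM in normoxia, all 3 hypoxia values falling inside the normoxia range. The log2 difference of ITGAV was 0.03 (95% interval -0.91 to 0.98). The ratio of ITGA5 to ITGAV was 18.3, 40.8 and 22.8 in hypoxia, against 70.9, 32.0 and 10.8 in normoxia. It is likewise not corrected for GC content, which was 56.2% for ITGA5 and 39.0% for ITGAV.

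Laminin-binding alpha subunits came next. ITGA3 had 69.5, 137 and 74.7 FPKM in hypoxia, against 126, 84.4 and 64.5 FPKM in normoxia. ITGA6 had 16.8, 24.2 and 16.5 FPKM in hypoxia, against 18.7, 18.9 and 24.6 FPKM in normoxia. ITGA3 exceeded ITGA6 in every library, with ratios of 4.12, 5.66 and 4.53 in hypoxia, against 6.75, 4.47 and 2.62 in normoxia. Log2 differences were 0.02 for ITGA3 (95% interval -0.78 to 0.81) and -0.12 for ITGA6 (95% interval -0.68 to 0.43), and the groups overlapped in both. ITGA7, the laminin receptor of muscle, had at most 21 reads in any library.

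Of the collagen-binding alpha subunits, ITGA10 and ITGA2 were tested. ITGA10, known as a cartilage collagen receptor, had 12.2, 52.6 and 17.04 FPKM in hypoxia, against 38.2, 22.5 and 10.1 FPKM in normoxia. It had the widest interval of the 32 members, from -1.34 to 1.56 around a log2 difference of 0.11. ITGA2 had 5.28, 6.74 and 7.17 FPKM in hypoxia, against 3.40, 6.27 and 11.2 FPKM in normoxia, with a log2 difference of 0.03 (95% interval -0.93 to 0.99). These receptors differed in where they were high, since hypoxia replicate 2 held the most ITGA10 and normoxia replicate 3 the most ITGA2. ITGA1 stayed below the filter, with 59, 112 and 138 reads in hypoxia, against 59, 120 and 109 reads in normoxia. Its exons share 475 bases with PELO on the same strand.

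The remaining tested alpha subunits are best known from leukocytes. ITGAE had 2.98, 1.17 and 2.16 FPKM in hypoxia, against 2.02, 2.60 and 3.10 FPKM in normoxia. Its log2 difference of -0.35 (95% interval -1.23 to 0.53) was the lowest of the 32 members, and it was 0.0016 without hypoxia replicate 2. The exons of ITGAE share 427 bases, 6.41% of their length, with HASPIN on the opposite strand. ITGA4 had 1.39, 1.47 and 2.17 FPKM in hypoxia, against 0.901, 1.77 and 2.01 FPKM in normoxia. ITGAX had 1.00, 2.01 and 1.85 FPKM in hypoxia, against 1.81, 1.96 and 0.856 FPKM in normoxia. The groups overlapped in each of these 3 genes. ITGAM and ITGAD had at most 3 reads in any library, and the pan-leukocyte beta subunit ITGB2 had 14, 22 and 18 reads in hypoxia, against 24, 11 and 0 reads in normoxia.

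All 4 tested beta subunits had positive log2 differences, none past the test. ITGB1, the common partner of most alpha subunits here, had 54.2, 50.8 and 69.9 FPKM in hypoxia, against 29.9, 49.9 and 74.3 FPKM in normoxia. ITGB5, a partner of ITGAV, had 40.8, 90.8 and 55.9 FPKM in hypoxia, against 73.7, 65.8 and 28.3 FPKM in normoxia. Both overlapped, with log2 differences of 0.26 (95% interval -0.51 to 1.04) and 0.20 (95% interval -0.79 to 1.19). Summed FPKM of the alpha partners of ITGB1 exceeded that of ITGB1 in every library, with ratios of 4.41, 10.2 and 3.85 in hypoxia, against 15.7, 6.52 and 3.54 in normoxia. These ratios are not corrected for GC content, which was 40.9% for ITGB1, 56.2% for ITGA5 and 59.1% for ITGA3. A processed pseudogene, ITGB1P1, held 5.12% to 5.67% as many reads as ITGB1 in hypoxia and 4.32% to 4.78% in normoxia, and reads of such copies may be split in counting.

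ITGB4, the partner of ITGA6 in hemidesmosomes, had the largest log2 difference of all members. ITGB4 (chromosome 17, 75721328 to 75757818, plus strand) had 21.1, 96.5 and 28.1 FPKM in hypoxia, against 30.6, 15.3 and 11.9 FPKM in normoxia. The groups overlapped, since normoxia replicate 1 lay above hypoxia replicates 1 and 3. The log2 difference of 1.12 (SE 0.59, 95% interval -0.24 to 2.47) had an unadjusted limma p of 0.094 and an adjusted p of 1.00. Without hypoxia replicate 2 it was 0.45, and it ranged up to 1.55 when other libraries were left out. After the correction for GC content and length described below it was 1.20, with an unadjusted limma p of 0.018 and an adjusted p of 0.820. The ratio of ITGB4 to ITGA6 was 1.25, 3.98 and 1.70 in hypoxia, against 1.64, 0.809 and 0.483 in normoxia, and overlapped through normoxia replicate 1. This ratio is not corrected for GC content, which was 62.9% for ITGB4 and 43.2% for ITGA6.

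ITGB3, the beta subunit of the vitronectin receptor, had 5.35, 13.9 and 4.37 FPKM in hypoxia, against 6.94, 4.42 and 2.32 FPKM in normoxia. Its log2 difference was 0.72 (95% interval -0.50 to 1.93), and 0.21 without hypoxia replicate 2. Of its exon length 51.6% lies in AC068234.1, a same-strand gene that was not analysed here, so its level may be counted only in part. The ratio of ITGB3 to ITGB5 was 0.131, 0.153 and 0.0782 in hypoxia, against 0.0941, 0.0671 and 0.0822 in normoxia. ITGB5 thus exceeded ITGB3 in every library of either group.

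**Figure D3:**
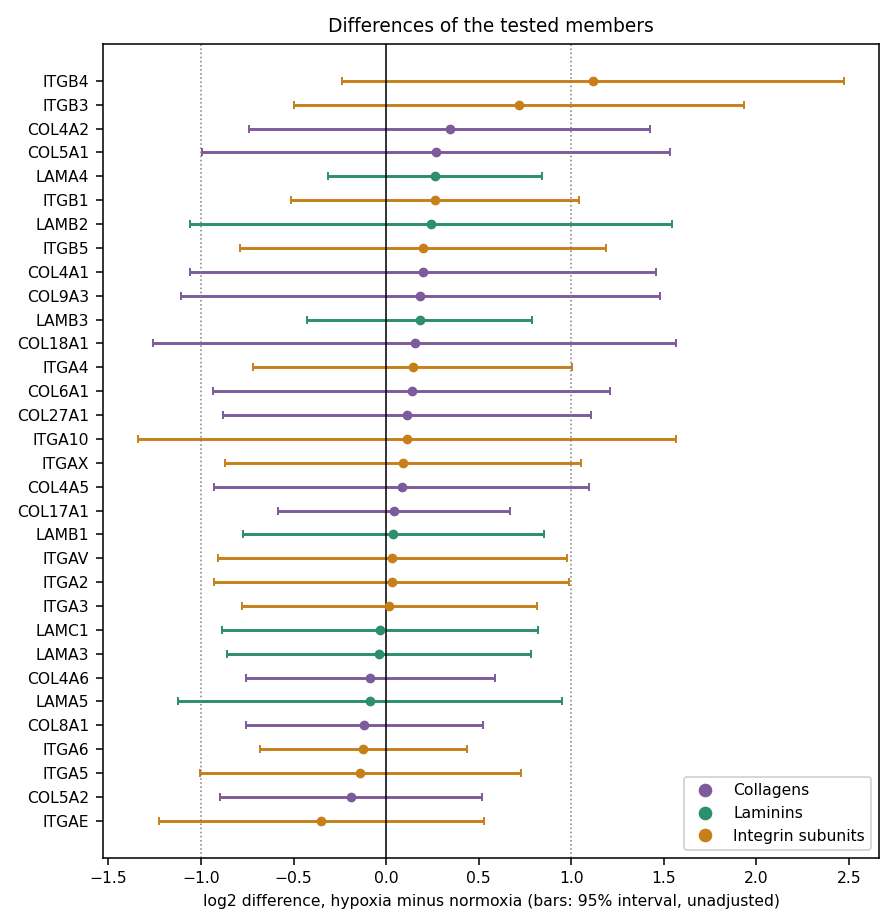
Log2 differences, hypoxia minus normoxia, of the 32 tested members, from the highest at the top to the lowest at the bottom. Points are limma estimates, bars are unadjusted 95% intervals, colours mark the family and dotted lines mark 2-fold in either direction. All intervals include 0, and that of ITGB4 reaches highest, from -0.24 to 2.47.

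The intervals show what size of difference these libraries could have missed. For 13 of the 32 members (40.6%) the 95% interval stayed within 2-fold in either direction, against 58.4% of all genes tested. By family this held for 4 collagens, 5 laminins and 4 integrin subunits. The median half-width was 0.95 on the log2 scale over the members, beside 0.72 over all genes tested. For the other 19 members a 2-fold difference in at least 1 direction lay within the interval, so the lack of a call does not show equal levels.

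Below the filter stood 33 members, made up of 19 collagens, 4 laminins and 10 integrin subunits. Of these, 19 had fewer than 10 reads in every library. The most reads among the rest were those of ITGB8, a beta subunit that activates TGF-beta, with 96, 49 and 86 reads in hypoxia, against 78, 159 and 250 reads in normoxia. The transmembrane collagen COL13A1 had 57, 54 and 41 reads in hypoxia, against 40, 54 and 24 reads in normoxia. COL16A1 had 46, 89 and 45 reads in hypoxia, against 62, 60 and 46 reads in normoxia. The groups overlapped in each of these 3 genes. COL7A1, the collagen of anchoring fibrils, had 2, 0 and 1 reads in hypoxia, against 7, 3 and 8 reads in normoxia, and its groups did not overlap. For COL7A1 and COL6A5 this rests on a few reads. How often groups do not overlap among all genes below the filter was not counted. COL2A1, COL8A2, COL20A1, COL21A1 and COL26A1 had 0 reads in all 3 hypoxia libraries, which allows a level per library of up to 0.0252, 0.0360, 0.0153, 0.0237 and 0.0532 FPKM in that order, at 3 reads and for counting error only. COL21A1 had 0, 0 and 7 reads in normoxia, and the other 4 had at most 2 reads in any normoxia library. In a limma fit with no filter all 65 members were tested, and 0 were called, against 4 of 22153 genes (0.0181%).

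Most members were highest in the same library. Of the 32 tested members 24 (75.0%) were highest in hypoxia replicate 2, against 22.4% of all genes tested. In normoxia replicate 3, 17 (53.1%) were lowest, against 28.2% of all genes tested. GC content of transcripts moved with this: of the 12 members at 55% GC or more, 11 were highest in hypoxia replicate 2 and 9 lowest in normoxia replicate 3. Of all genes tested at that GC content, 36.1% were highest in hypoxia replicate 2 and 40.2% lowest in normoxia replicate 3. Of the 12 members under 50% GC, 7 were highest in hypoxia replicate 2 and 4 in normoxia replicate 3, the latter including ITGAV, ITGA2 and ITGB1. Of all genes tested under 50% GC, 11.5% were highest in hypoxia replicate 2, so members exceeded the share of all genes in this class too. Across the 32 members, which share libraries, the Pearson correlation of GC content with the deviation from the member's mean was -0.34, 0.51 and -0.22 in hypoxia, against 0.79, -0.06 and -0.75 in normoxia. Over all 10237 genes tested it was -0.32, 0.48 and -0.29 in hypoxia, against 0.62, 0.23 and -0.53 in normoxia, of the same sign as over the members in every library but normoxia replicate 2.

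**Figure D4:**
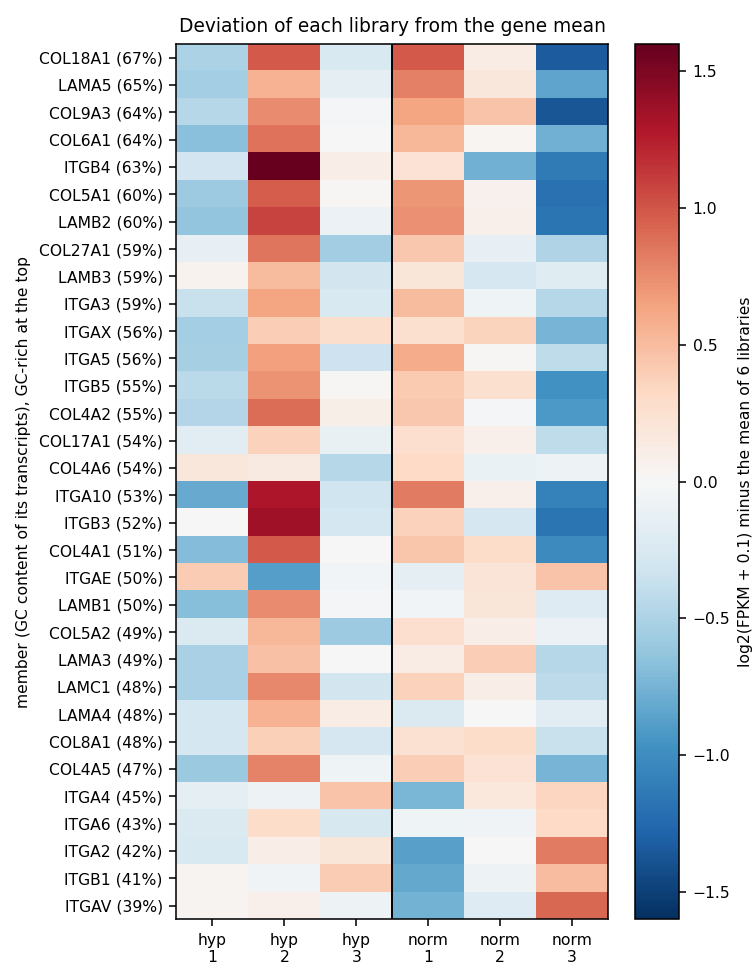
Deviation of each library from the mean of the 6 libraries for the 32 tested members, in log2(FPKM + 0.1), with hypoxia (hyp) libraries left of the line and normoxia (norm) libraries right of it. Rows run from the highest GC content at the top to the lowest at the bottom, and red is above and blue below the mean. Hypoxia replicate 2 is red for most members, and normoxia replicate 3 is blue at the top and red for ITGAV, ITGB1 and ITGA2 at the bottom.

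Removing the dependence of each library on GC content and exon length changed this little for the members. After that correction 23 of the 32 members (71.9%) were highest in hypoxia replicate 2, against 22.0% of all genes tested. Likewise 19 (59.4%) were lowest in normoxia replicate 3, against 29.8%. Genes tested with exons of 6000 bases or more and GC content of 50% or more were highest in hypoxia replicate 2 in 47.2% of cases before the correction and in 25.9% after it. Corrected values called 0 members and 33 genes (0.322%), with ITGB4 at an unadjusted limma p below 0.05, against 503 genes (4.91%). What sets hypoxia replicate 2 apart for these genes was not tested.

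Partner genes of the matrix were read beside the members. Of 9 tested partners in the basement membrane, 0 passed limma, with 7 positive, 2 negative and a median log2 difference of 0.03, and the largest were -0.14 for NTN4 and 0.13 for TINAGL1. Of 16 interstitial ligands 0 passed, with 13 positive, 3 negative and a median of 0.24. The largest were vitronectin (VTN), at 0.58, and multimerin (MMRN1), at 0.56. Fibronectin, the main ligand of ITGA5 and encoded by FN1, had 7.43, 21.1 and 7.20 FPKM in hypoxia, against 14.6, 7.47 and 7.84 FPKM in normoxia. A list of matrix receptors and other surface proteins, without integrins, had 10 tested genes. Of these 0 passed, with 9 positive, 1 negative and a median of 0.13. The largest were 0.35 for the syndecan SDC4 and 0.24 for the tetraspanin CD9. DAG1 was counted both in this list and among the basement membrane partners. Of 14 proteases and inhibitors 0 passed, with 11 positive, 3 negative and a median of 0.16, the largest being 0.77 for MMP11 and -0.47 for TIMP3.

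Adaptors that join integrins to actin were even in direction. Of 24 tested 0 passed limma, with 12 positive, 12 negative and a median log2 difference of 0.00, and the groups did not overlap in 3, where 7.48% of all genes tested did not overlap. BCAR1, the focal adhesion scaffold p130Cas, had 108, 275 and 106 FPKM in hypoxia, against 90.5, 50.2 and 51.7 FPKM in normoxia. Its groups did not overlap, and its log2 difference of 1.25 (95% interval 0.28 to 2.21) had an unadjusted limma p of 0.017 and an adjusted p of 1.00. The kindlin FERMT1 had 2.004, 1.19 and 1.74 FPKM in hypoxia, against 2.18, 2.54 and 2.98 FPKM in normoxia, a log2 difference of -0.63 (95% interval -1.32 to 0.06). Its groups did not overlap either.

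Among genes that process collagen, the largest log2 differences were those of P4HA1 and P4HA2, catalytic subunits of the oxygen-dependent prolyl 4-hydroxylases. Of 22 tested 0 passed limma, with 19 positive, 3 negative and a median log2 difference of 0.14. At an unadjusted limma p below 0.05 there were 3, against 2.69% of all genes tested. P4HA1 had 44.2, 39.8 and 50.3 FPKM in hypoxia, against 7.55, 10.9 and 20.1 FPKM in normoxia. P4HA2 had 20.7, 47.5 and 30.4 FPKM in hypoxia, against 18.1, 17.9 and 9.48 FPKM in normoxia. The groups overlapped in neither, and these were the only 2 of the 22 without overlap, where 7.48% of all genes tested did not overlap. P4HA1 had a log2 difference of 1.91 (95% interval 1.097 to 2.71), with an adjusted p of 0.212 by limma and 0.00309 by DESeq2. It was the only 1 of the 22 called by DESeq2, which called 0.488% of all genes tested. P4HA2 had a log2 difference of 1.09 (95% interval 0.22 to 1.96), with an adjusted p of 1.00 by limma and 0.550 by DESeq2. The other subunits had smaller log2 differences, 0.16 for P4HA3 and 0.34 for P4HB. The lysyl hydroxylases PLOD2 and PLOD1 stood at 0.98 and 0.60, and the lysyl oxidase LOX, which cross-links collagen, at 0.78. Collagens, the substrates of these enzymes, described above, held no member past any of these tests.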

How the data were processed

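Polyadenylated RNA of EA.hy926 cells was sequenced in 6 libraries; the submitters' processing notes list CASAVA, HISAT2 2.0.5 and featureCounts 1.5.0-p3. They also list mm9, though all 22153 identifiers are human (GENCODE 29). The deposited signal, in a table named for FPKM, is whole read counts divided by a size factor per library (0.944 to 1.06): all values (100%) were whole multiples of 1 step within 0.05 of a step. Values were divided by summed exon length and mean library total. The planned test was kept: limma 3.58.1 (R 4.3.3) with trend and robust variance on log2(FPKM + 0.1), group as the only term, two-sided, Benjamini-Hochberg over 10237 genes. Fold changes of low genes are understated on this scale. edgeR 4.0.16 and DESeq2 1.42.0 used the recovered reads. Scripts were tested on simulated data with 200 genes changed. Each class's highest 3 members, members apart between groups or at an unadjusted p below 0.05, and the 4 largest differences in each direction are given by library; other lists by counts and the 2 largest differences (P4HA3, P4HB, PLOD1, PLOD2 and LOX were added after their values were seen). The symbol rule found 66 members, of which 1 is not reported here and enters no count of members. Members and lists were chosen with earlier results of these data known. The alternatives were pseudocounts 0.01 and 1, filters, TMM, both count tools, a replicate block, GC and length correction, and leaving out each library. Depth covers counting error only.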

Additional observations from a re-analysis of the deposited data

How the results depend on the processing

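None of the 32 tested members was called in any of the 16 alternatives. The median log2 difference stayed positive in each family under the alternatives that kept all 6 libraries, and ranged from -0.26 to 0.42 for collagens, -0.28 to 0.22 for laminins and -0.01 to 0.26 for integrin subunits when 1 library was left out. The count over all genes was 10 and became 4 with no filter, 33 after the GC and length correction, 50 by DESeq2 and 1 to 20 when a library was left out (3 without hypoxia replicate 2 and 20 without normoxia replicate 3). With the replicate block it was 19, and 28 with the block and the GC and length correction. Deviations of same-numbered libraries from their group means had correlations of -0.40, 0.24 and 0.22 for replicates 1 to 3. Not each library correlated best with its own number, and the block called no member. The log2 difference turned sign for LAMC1 (0.038 by edgeR, 0.033 by DESeq2), ITGAV (-0.14, -0.17) and ITGA2 (-0.12, -0.15), and after the GC and length correction, with or without the replicate block, for LAMA5 (0.041) and LAMA3 (0.033). The cause was not tested.

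Leaving out 1 library turned the sign in 28 members, 18 of them without hypoxia replicate 2 and 16 without normoxia replicate 3, with these ranges. Collagens: COL4A1 -0.26 to 0.59, COL4A2 -0.027 to 0.67, COL4A5 -0.29 to 0.40, COL4A6 -0.20 to 0.12, COL5A1 -0.26 to 0.69, COL5A2 -0.50 to 0.055, COL6A1 -0.26 to 0.51, COL9A3 -0.45 to 0.54, COL17A1 -0.15 to 0.19, COL18A1 -0.48 to 0.68 and COL27A1 -0.28 to 0.42. Laminins: LAMA3 -0.28 to 0.21, LAMA5 -0.53 to 0.29, LAMB1 -0.33 to 0.39, LAMB2 -0.28 to 0.67, LAMB3 -0.025 to 0.37 and LAMC1 -0.43 to 0.22. Integrin subunits: ITGA2 -0.40 to 0.45, ITGA3 -0.29 to 0.28, ITGA4 -0.19 to 0.35, ITGA5 -0.50 to 0.13, ITGA6 -0.30 to 0.0066, ITGA10 -0.51 to 0.56, ITGAE -0.64 to 0.0016, ITGAV -0.34 to 0.50, ITGAX -0.26 to 0.38, ITGB1 -0.077 to 0.58 and ITGB5 -0.24 to 0.47. The sign held in all alternatives for COL8A1, LAMA4, ITGB3 and ITGB4, though barely for COL8A1. With 1 library left out, COL8A1 ran from -0.34 to -0.00025 and LAMA4 from 0.052 to 0.47. ITGB3 then ran from 0.21 to 1.08 and ITGB4 from 0.45 to 1.55. With 3 libraries a group, differences near 2-fold lie within most members' intervals.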

Other observations

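Genes named for integrins but encoding other proteins were outside the families. ITGB1BP1, an inhibitor of ITGB1 activation, had 8.15, 5.14 and 6.95 FPKM in hypoxia, against 4.98, 5.36 and 4.75 FPKM in normoxia. Its log2 difference of 0.39 had an adjusted limma p of 1.00. ITGB3BP, a centromere protein also known as CENPR, had 4.16, 1.66 and 3.17 FPKM in hypoxia, against 1.63, 1.86 and 13.3 FPKM in normoxia, so normoxia replicate 3 stood well above the other 5 libraries. Of the antisense and divergent transcripts named after members, those with the most reads were ITGB1-DT and LAMA4-AS1. The divergent transcript ITGB1-DT had 20, 13 and 13 reads in hypoxia, against 7, 12 and 5 reads in normoxia, and the antisense LAMA4-AS1 had 17, 15 and 16 reads in hypoxia, against 16, 25 and 3 reads in normoxia.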
